A study of Mus musculus with 10 samples.

Results

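The genes described here are 10 endothelial genes out of 45706 gene identifiers counted in early mouse melanomas. They were taken as a list of names with no threshold on a measured value, but with earlier results of these data known. Listed for endothelial identity are *Pecam1*, *Cdh5*, *Esam*, *Tie1*, *Tek* and *Plvap*. *Sele*, *Selp*, *Vcam1* and *Icam1* encode adhesion molecules for leukocytes. Which cells made each RNA was not measured. All 10 were counted in every library and all 10 passed the filter on low counts. The tumors grew from a *Braf*-mutant melanoma line injected under the flank skin of C57BL/6 hosts aged 8 weeks, and whole tumors were collected on day 4. Ptgs+/+ tumors (n = 4) came from the parental cells, which make prostaglandins through COX-1 and COX-2. Ptgs-/- tumors (n = 3) came from cells of the same line in which both COX genes, *Ptgs1* and *Ptgs2*, had been disrupted by gene editing. Ptgs-/- NK-depleted tumors (n = 3) came from the same edited cells in mice given the antibodies anti-NK1.1 (200 µg) and anti-asialo GM1 (30 µg) on days 0 and 2, whereas the mice of the other groups were untreated. The editing touched only the injected cells, so the endothelial cells of all tumors were those of unedited hosts.

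Endothelial cells line blood vessels and are held together by junctional proteins, of which VE-cadherin (*Cdh5*) is restricted to this lineage. PECAM-1 (*Pecam1*, also called CD31) and ESAM (*Esam*) sit at the same contacts, TIE1 and TIE2 (*Tie1*, *Tek*) form the angiopoietin receptor system, and PLVAP forms the diaphragms of fenestrae and caveolae in permeable vessels. When endothelium is activated by inflammatory cytokines it displays E-selectin (*Sele*) and P-selectin (*Selp*), which let leukocytes roll, and VCAM-1 and ICAM-1, which bind leukocyte integrins and arrest them. P-selectin is also stored in platelets. VCAM-1 and ICAM-1 are not restricted to endothelium, since fibroblasts, macrophages and tumor cells can make VCAM-1 and many leukocytes make ICAM-1. In a bulk tumor, fewer cells of a type and less RNA per cell cannot be told apart.

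Each library held 8150556 to 12839174 counts, and levels are given in CPM, a gene's counts scaled to a common library total after TMM, so that 3 counts were worth 0.238 to 0.363 CPM. The 3′ libraries give 1 tag per transcript, so CPM does not grow with transcript length. *Ptgs2* averaged 258.2 ± 111.9 CPM (SD, n = 4) for Ptgs+/+, 42.2 ± 27.4 CPM for Ptgs-/- and 44.7 ± 4.48 CPM for NK-depleted libraries (n = 3 each). *Ptgs1* averaged 155.1 ± 19.3, 91.9 ± 14.4 and 96.1 ± 1.94 CPM in the same order. Host cells also make both RNAs, and a 3′ tag can lie outside the edited bases, so these levels check the editing only in part. *Ncr1*, the NK cell receptor NKp46, had 20 to 77 counts in Ptgs-/- tumors and 0 in each NK-depleted tumor, which allows up to 3 counts per library. The labels carry an experiment code that differs for Ptgs+/+ replicate 4 and Ptgs-/- replicate 3, and what the code marks is not given in the labels. They also do not say that the replicates are separate mice, so p-values measure only the spread between these samples.

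Against Ptgs+/+ tumors, Ptgs-/- tumors had lower levels of 6 of the 10 genes and a higher level of 1. *Pecam1*, *Cdh5*, *Tie1*, *Esam*, *Sele* and *Vcam1* fell, *Icam1* rose, and *Tek*, *Plvap* and *Selp* did not pass the test. Calls were made with the quasi-likelihood test of edgeR, whose p-values were adjusted over all 14550 genes tested by the Benjamini-Hochberg method to a false discovery rate (FDR), with 0.05 as the limit. In this comparison it called 23.1% of all genes, 11% lower and 12.1% higher. The median log2 fold change was -0.97 over the 10 genes and -0.0060 over all genes tested. None of the 10 reached an absolute log2 fold change of 1.5 together with the FDR threshold, a rule that 4.15% of all genes met. The groups did not overlap for 5 genes that were lower and 1 that was higher, whereas 30.5% of all genes showed such separation, 15.2% lower and 15.4% higher.

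**Figure D1:**
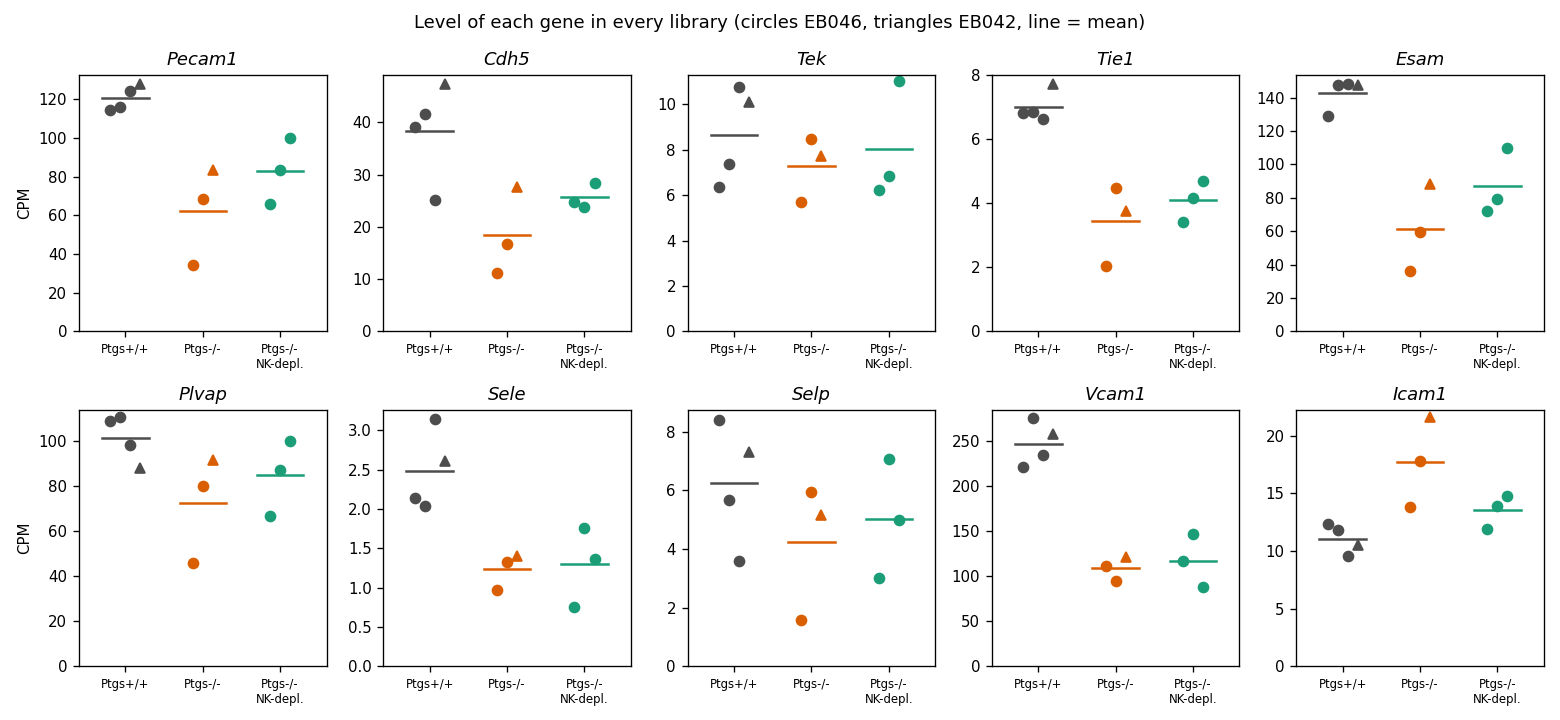
Level of each gene in CPM (linear axes from 0) in every library, by group, with circles for the first experiment code, triangles for the second and a line at the group mean. The Ptgs+/+ libraries lie above every Ptgs-/- library for Pecam1, Tie1, Esam, Sele and Vcam1, and below every one for Icam1.

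Among the junctional genes, *Esam* (chr9:37528078-37538319, plus strand, GRCm38) had the lowest ratio of Ptgs-/- to Ptgs+/+ levels. It stood at 129, 147, 148 and 147 CPM in Ptgs+/+ replicates 1 to 4, at 36.3, 59.6 and 88.5 CPM in Ptgs-/- replicates 1 to 3, and at 72.0, 79.0 and 109.9 CPM in NK-depleted replicates 1 to 3. Every Ptgs-/- library, with or without NK cells, was below every Ptgs+/+ library, and the Ptgs-/- libraries spread far more than the Ptgs+/+ libraries. The Ptgs-/- mean was 2.32-fold lower than the Ptgs+/+ mean (log2 fold change -1.21 ± 0.25, SE; edgeR FDR 0.00507). *Pecam1* (chr11:106654217-106750628, minus strand) stood at 114, 116, 124 and 128 CPM in Ptgs+/+, at 34.2, 68.4 and 83.3 CPM in Ptgs-/-, and at 66.0, 83.6 and 99.9 CPM in NK-depleted tumors. The order of the groups was that of *Esam*, with the Ptgs+/+ libraries close together and above all 6 others. *Pecam1* was 1.94-fold lower in Ptgs-/- than in Ptgs+/+ tumors (log2 fold change -0.95 ± 0.24; edgeR FDR 0.0157).

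*Cdh5* (chr8:104101625-104144511, plus strand) stood at 39.1, 41.7, 25.1 and 47.3 CPM in Ptgs+/+, at 11.1, 16.6 and 27.6 CPM in Ptgs-/-, and at 24.7, 23.8 and 28.3 CPM in NK-depleted tumors. Here the groups overlapped, because Ptgs+/+ replicate 3 was lower than Ptgs-/- replicate 3. The log2 fold change was -1.04 ± 0.28, a 2.06-fold lower level (edgeR FDR 0.0197), and the call was lost without Ptgs-/- replicate 2 (FDR 0.0817).

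*Tie1* (chr4:118471191-118490061, minus strand), the orphan receptor of the angiopoietin system, stood at 6.82, 6.85, 6.64 and 7.73 CPM in Ptgs+/+, at 2.06, 4.49 and 3.77 CPM in Ptgs-/-, and at 3.43, 4.18 and 4.69 CPM in NK-depleted tumors. All Ptgs-/- libraries, NK-depleted ones included, lay under the Ptgs+/+ range, and the fall was 2.01-fold (log2 fold change -1.01 ± 0.24; edgeR FDR 0.0123). *Tek* (chr4:94739289-94874976, plus strand), which encodes the receptor for the angiopoietins themselves, stood at 6.34, 7.39, 10.8 and 10.1 CPM in Ptgs+/+, at 5.69, 8.47 and 7.71 CPM in Ptgs-/-, and at 6.21, 6.87 and 11.04 CPM in NK-depleted tumors. The groups overlapped throughout. The *Tek* log2 fold change was -0.24, with a 95% interval from -0.81 to 0.33 (edgeR FDR 0.547), so a fall of the size of the *Tie1* estimate lies outside its interval. The difference between the 2 genes was not tested.

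*Plvap* (chr8:71497765-71511752, minus strand) stood at 109, 110.6, 98.3 and 87.9 CPM in Ptgs+/+, at 45.6, 80.1 and 91.4 CPM in Ptgs-/-, and at 66.7, 87.2 and 99.95 CPM in NK-depleted tumors. Ptgs-/- replicate 1 stood far under the rest and the other libraries overlapped. The log2 fold change was -0.48, with a 95% interval from -0.95 to -0.02, and it did not pass after adjustment (edgeR FDR 0.125).

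The 30 other genes listed as endothelial gave the same direction for most members, though not for all. Of the 29 that were tested, 8 fell and 1 rose in Ptgs-/- against Ptgs+/+ tumors, or 27.6% lower and 3.45% higher, where all genes gave 11% and 12.1%. The list was chosen with earlier results of these data known, so these shares are a description. The log2 fold change was negative for 26 of the 29 and its median was -0.65. Those that fell were *Aplnr*, the apelin receptor (log2 fold change -1.26 ± 0.26, edgeR FDR 0.00531), *Podxl*, *Mmrn2*, *Ptprb*, *S1pr1*, *Adgrl4*, *Rasip1* and *Arhgef15*. *Cd34*, which fibroblasts and progenitors also make, rose from 208.1 ± 46.8 to 442 ± 164 CPM (log2 fold change 1.09 ± 0.24, FDR 0.00754). The VEGF receptor genes *Kdr* (0.02 ± 0.22) and *Flt1* (-0.21 ± 0.12) and the lectin-like receptor gene *Cd93* (-0.32 ± 0.13) did not pass. Without Ptgs-/- replicate 3 the number that fell was 14. It was 5 without Ptgs-/- replicate 1 or 2, NK-depleted replicate 3, or Ptgs+/+ replicate 1 or 4. Of the 10 partners of the junctions, *F11r* (JAM-A, -0.75 ± 0.19), *Afdn* and *Tjp1* fell, *Jup* (plakoglobin, 0.46 ± 0.13) rose, and the median was -0.01. None of the 5 lymphatic endothelial genes tested was called.

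**Figure D2:**
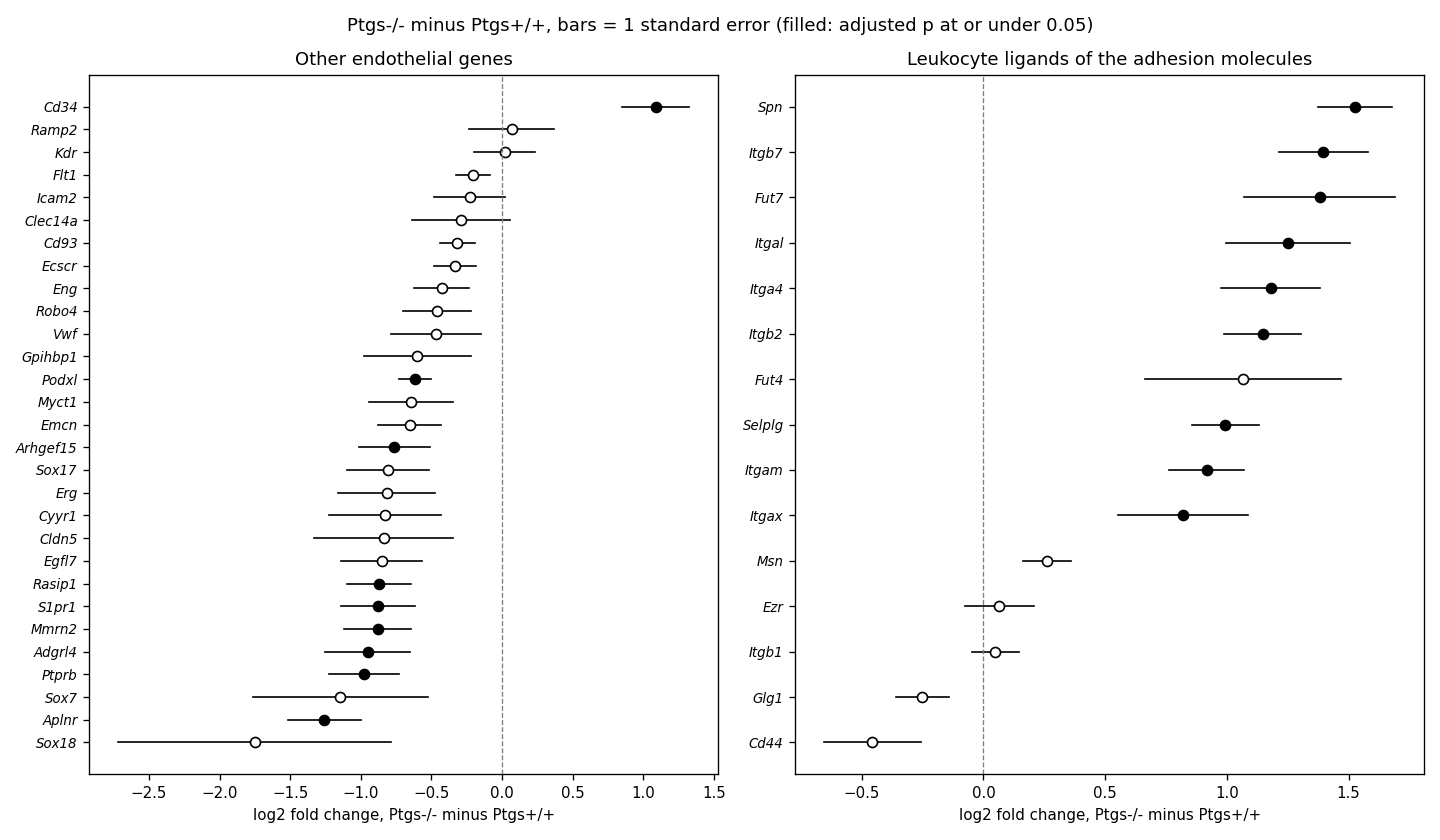
Log2 fold change of Ptgs-/- minus Ptgs+/+ tumors for 29 other endothelial genes and for 15 genes listed for the leukocyte side of adhesion. The 15 are headed as ligands but include enzymes and cytoskeletal linkers. Bars are 1 standard error, and filled points have an adjusted p at or under 0.05. Most endothelial genes lie left of 0 (26 of 29), and 13 of the 15 genes of the leukocyte side lie right of it.

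The adhesion molecules did not move together. *Vcam1* (chr3:116109949-116129688, minus strand), the ligand of the α4 integrins, had the highest mean level of the 10 genes in each group, though in NK-depleted replicate 3 it was under *Esam*, *Plvap* and *Pecam1*. It stood at 221, 275, 235 and 257 CPM in Ptgs+/+, at 112, 94.0 and 121 CPM in Ptgs-/-, and at 117, 146 and 87.8 CPM in NK-depleted tumors. No Ptgs-/- or NK-depleted library reached the lowest Ptgs+/+ library, and those 2 groups overlapped each other. The fall was 2.27-fold (log2 fold change -1.18 ± 0.16; edgeR FDR 0.000628), and *Vcam1* was called in all 10 fits that left out 1 library. No sample of the cells grown alone is among the libraries, so the part of the *Vcam1* RNA that came from the melanoma cells was not measured.

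*Icam1* (chr9:21015985-21028817, plus strand), which encodes the counter-receptor of the β2 integrins, was the exception. It stood at 12.3, 11.8, 9.52 and 10.5 CPM in Ptgs+/+, at 13.8, 17.8 and 21.6 CPM in Ptgs-/-, and at 11.9, 13.9 and 14.8 CPM in NK-depleted tumors. The Ptgs-/- libraries were all above the Ptgs+/+ libraries, while the NK-depleted libraries overlapped both groups. *Icam1* rose 1.61-fold (log2 fold change 0.69 ± 0.17; edgeR FDR 0.0143). The call was lost without Ptgs-/- replicate 3 (0.55, FDR 0.0607) and within the first experiment code alone (0.53, FDR 0.0995).

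*Sele* (chr1:164048234-164057677, plus strand) was scarce, with 7 to 35 counts per library. It stood at 2.14, 2.03, 3.14 and 2.61 CPM in Ptgs+/+, at 0.968, 1.33 and 1.40 CPM in Ptgs-/-, and at 0.750, 1.76 and 1.37 CPM in NK-depleted tumors. Both Ptgs-/- groups were under all Ptgs+/+ libraries. The fall of 1.99-fold (log2 fold change -0.99 ± 0.33) was just past the threshold (edgeR FDR 0.0475), and *Sele* was called in only 2 of the 10 fits without 1 library, with FDR values up to 0.121. *Selp* (chr1:164115264-164150026, plus strand) stood at 8.41, 5.68, 3.59 and 7.31 CPM in Ptgs+/+, at 1.57, 5.92 and 5.17 CPM in Ptgs-/-, and at 2.999, 7.05 and 4.98 CPM in NK-depleted tumors. These ranges overlapped, and the log2 fold change of -0.55 had a 95% interval from -1.48 to 0.39 (edgeR FDR 0.389).

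Promoter windows from RefSeq on GRCm38.p6, from 250 bases before the RefSeq gene start to 50 after it, were at hand for *Sele*, *Selp*, *Tek*, *Tie1* and *Icam1*. The windows of *Sele* (chr1:164047984-164048283, plus strand) and *Icam1* (chr9:21015690-21015989, plus strand) are shown because these genes, called in opposite directions, were the only ones of the 5 with a match to the palindromic STAT-type motif TTCNNNGAA, which is in capitals.
Sele: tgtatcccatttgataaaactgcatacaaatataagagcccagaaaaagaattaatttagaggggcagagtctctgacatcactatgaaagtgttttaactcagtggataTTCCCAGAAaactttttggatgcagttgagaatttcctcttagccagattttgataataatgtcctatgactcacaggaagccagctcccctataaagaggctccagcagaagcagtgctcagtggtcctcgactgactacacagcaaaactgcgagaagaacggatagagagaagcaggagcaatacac
Icam1: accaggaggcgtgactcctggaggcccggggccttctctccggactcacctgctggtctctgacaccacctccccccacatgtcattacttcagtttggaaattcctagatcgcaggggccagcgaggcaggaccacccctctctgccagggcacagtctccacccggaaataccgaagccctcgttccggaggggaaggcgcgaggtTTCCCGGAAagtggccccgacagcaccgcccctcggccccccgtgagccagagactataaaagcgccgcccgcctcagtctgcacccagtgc
The match begins 140 bases before the start in *Sele* and 42 bases before it in *Icam1*, and 8.3% of all 32851 promoter windows hold such a match. The ETS-type motif CCGGAA occurred 3 times in the *Icam1* window on either strand, the last of them overlapping the STAT-type match, and 14.9% of windows hold it. The GATA-type motif AGATAA occurred in the *Tek* window, as in 11.2% of all windows. A single fixed spelling each of an NF-κB type motif (1.63% of windows) and an interferon response type motif (3.44%), also searched on both strands, did not occur in these 5 windows. Other spellings of these sites were not searched, so this does not say that the windows lack such sites.

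Set against *Cdh5* within each tumor, *Icam1* was the only listed gene whose difference from *Cdh5* separated all 3 groups. The difference of log2(CPM + 1) values, *Icam1* minus *Cdh5*, was -1.68 ± 0.31 (SD, n = 4) in Ptgs+/+, 0.01 ± 0.32 in Ptgs-/- and -0.88 ± 0.13 in NK-depleted tumors (n = 3 each). The ranges ran from -2.06 to -1.31, from -0.34 to 0.29 and from -0.998 to -0.74 in the same order, with no overlap. For each of the other 8 genes the ranges overlapped between every pair of groups. *Vcam1* minus *Cdh5* was 2.69 ± 0.34, 2.58 ± 0.58 and 2.12 ± 0.49 in the same order. No test was run on these differences, and the share of all genes whose difference from *Cdh5* separates the groups was not computed. In Ptgs-/- against Ptgs+/+ tumors *Icam1* was called higher and *Cdh5* lower, so their difference combines 2 changes already given. It does not show a relation particular to *Icam1*.

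**Figure D3:**
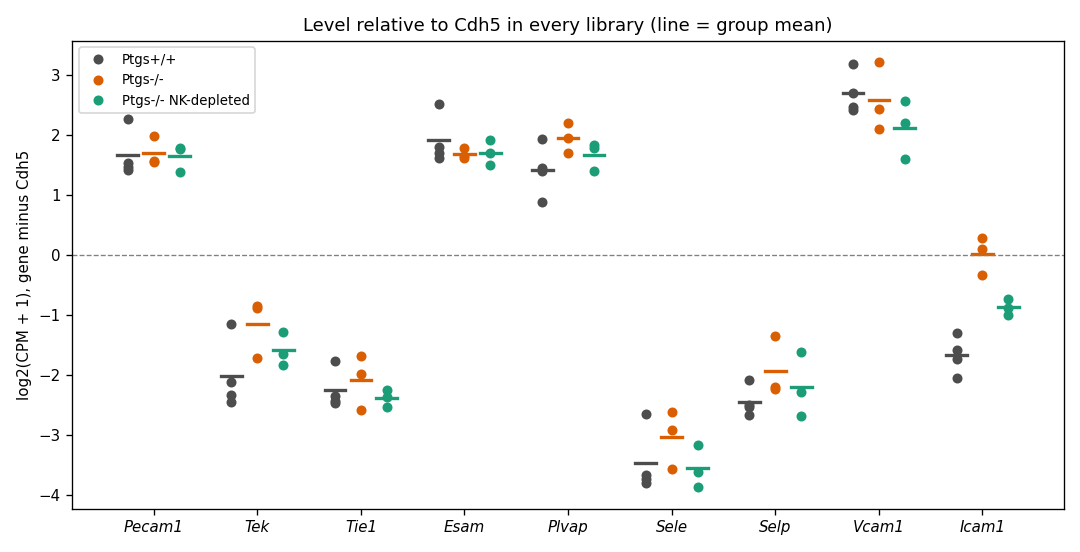
Difference of log2(CPM + 1) between each gene and Cdh5 in every library, by group, with a line at the group mean. Among the genes shown, only Icam1 separates the 3 groups, from a mean of -1.68 in Ptgs+/+ tumors to 0.01 in Ptgs-/- tumors.

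NK cell depletion of mice bearing Ptgs-/- tumors left all 10 genes without a call. In Ptgs-/- against NK-depleted tumors, edgeR called 1.44% of all genes (0.515% higher and 0.921% lower, and 1.15% also past the fold change rule). Of the 10, 0 passed at an FDR of 0.05 and 0 had an unadjusted p under 0.05, which 1630 of the 14550 genes had. Every fit with another tool or setting also called 0. In the first experiment code alone, which leaves out Ptgs-/- replicate 3, the junctional genes had larger estimates, still without a call. That fit keeps Ptgs-/- replicate 1, the lowest of the 10 libraries for 7 of the 10 genes. There *Esam* was at -0.83 ± 0.24 (edgeR FDR 0.234), *Cdh5* at -0.85 ± 0.26 (FDR 0.259) and *Pecam1* at -0.67 ± 0.27 (FDR 0.432), with unadjusted p-values of the edgeR test of 0.00636, 0.0081 and 0.0335. A fit of all libraries that included the code gave -0.70, -0.76 and -0.58. Over the fits without 1 library, *Esam* ranged from -0.83 to -0.23, *Cdh5* from -0.85 to -0.21 and *Pecam1* from -0.67 to -0.13. The ranges of the 2 groups overlapped for every gene, whereas 17.6% of all genes had separate ranges (9.31% higher, 8.33% lower). The median log2 fold change of the 10 was -0.23, with -0.01 over all genes. Intervals were wide. *Esam* was at -0.50 (95% interval -1.06 to 0.07), *Pecam1* at -0.42 (-0.98 to 0.14), *Cdh5* at -0.46 (-1.11 to 0.18) and *Vcam1* at -0.10 (-0.48 to 0.27). *Icam1*, the only positive estimate, was at 0.39 (-0.01 to 0.80; edgeR FDR 0.459). None of the 29 other endothelial genes was called.

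Against Ptgs+/+ tumors, the NK-depleted Ptgs-/- tumors had a lower level of 1 of the 10 genes, *Vcam1*, which fell 2.11-fold (log2 fold change -1.08 ± 0.16; edgeR FDR 0.00151). In this comparison 12.5% of all genes were called, 6.63% higher and 5.87% lower, and 2.71% also met the fold change rule, which *Vcam1* did not. *Tie1* (-0.77 ± 0.24, FDR 0.0577), *Esam* (-0.72 ± 0.24, FDR 0.0774) and *Sele* (-0.92 ± 0.32, FDR 0.0864) were just short of the threshold. With *Pecam1* (-0.54 ± 0.24, FDR 0.174) and *Vcam1*, these made 5 genes whose NK-depleted libraries all lay under the Ptgs+/+ libraries. Over all genes 26.6% had separate ranges, 13.1% lower and 13.6% higher. The count of calls rose to 4 without Ptgs-/- replicate 1 and to 2 without Ptgs-/- replicate 2 or 3, although those libraries are in neither group. All groups share 1 estimate of the spread in this fit, and the cause of the change was not tested. *Icam1* was at 0.29 ± 0.17 (FDR 0.312). This comparison and the 2 before it share their samples.

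The mean of the NK-depleted tumors lay between the means of the other groups for all 10 genes, as it did for 51.1% of all genes tested. For 9 genes the order was Ptgs+/+, NK-depleted, Ptgs-/-, and for *Icam1* it was the reverse. Levels of the identity genes varied together across libraries, so the 10 genes are not independent cases to set beside that share. Without Ptgs-/- replicate 1, the Ptgs-/- minus NK-depleted estimate turned positive for *Tek*, *Tie1*, *Plvap*, *Sele* and *Selp*. Neighbors in that order often did not differ beyond their spread. The Ptgs-/- and NK-depleted ranges overlapped for all 10 genes, and the NK-depleted and Ptgs+/+ ranges overlapped for *Cdh5*, *Tek*, *Plvap*, *Selp* and *Icam1*.

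**Figure D4:**
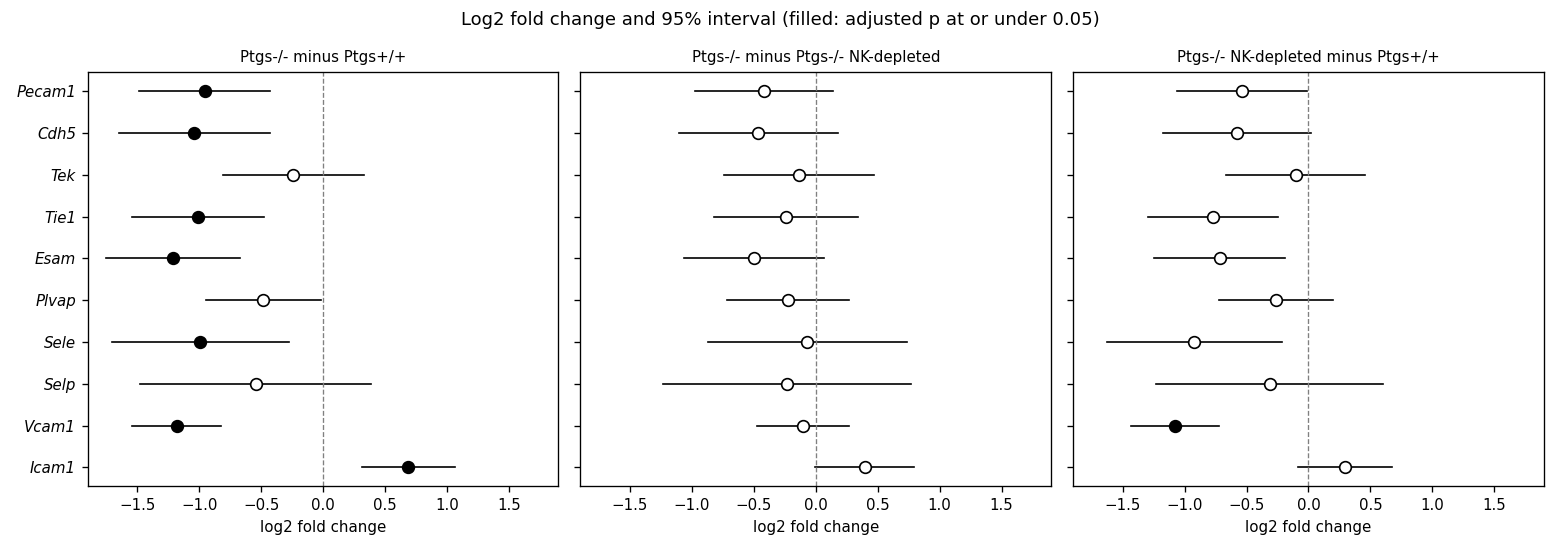
Log2 fold change of each gene in the 3 comparisons, with 95% intervals and filled points for an adjusted p at or under 0.05. Of the 10 genes 7 are filled in Ptgs-/- minus Ptgs+/+, 0 in Ptgs-/- minus NK-depleted and 1, Vcam1, in NK-depleted minus Ptgs+/+.

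Of 15 genes listed for the leukocyte side of this adhesion, 9 rose and 0 fell in Ptgs-/- against Ptgs+/+ tumors (60% higher, against 12.1% of all genes). The median log2 fold change of the 15 was 0.99. The 15 encode integrin subunits, selectin ligands, the enzymes that glycosylate them and cytoskeletal linkers. Which cells made these RNAs, leukocytes or others, was not measured. *Itga4*, a subunit of the VCAM-1 receptors, rose from 12.5 ± 1.22 to 28.3 ± 9.11 CPM (1.18 ± 0.20, edgeR FDR 0.00205), and *Itgb7* rose by a similar factor (1.40 ± 0.18). *Selplg*, which encodes the selectin ligand PSGL-1, rose from 62.0 ± 7.39 to 123 ± 24.6 CPM (0.99 ± 0.14, FDR 0.000645), together with *Fut7*, the fucosyltransferase that completes selectin ligands (1.38 ± 0.31). The integrin subunits that bind ICAM-1 rose as well, with *Itgal* at 1.25 ± 0.25, *Itgam* at 0.92 ± 0.15, *Itgax* at 0.82 ± 0.27 and *Itgb2* at 1.15 ± 0.16. *Spn* (CD43) rose by 1.53 ± 0.15. *Itgb1*, a further subunit of a VCAM-1 receptor, was at 0.05 ± 0.10, the E-selectin ligand genes *Cd44* and *Glg1* were at -0.46 ± 0.20 and -0.25 ± 0.11, and these did not pass, nor did *Ezr*, *Msn* and *Fut4*. The count that rose was 8 or 9 when 1 library was left out, and 1 gene fell without Ptgs-/- replicate 1 or Ptgs+/+ replicate 3 or 4. None was called in Ptgs-/- against NK-depleted tumors, although 4 were higher without Ptgs-/- replicate 1. Against Ptgs+/+ tumors 5 were higher in NK-depleted tumors. This was 2 without NK-depleted replicate 1, and 3 without NK-depleted replicate 2 or 3 or Ptgs+/+ replicate 2 or 4.

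Genes induced by NF-κB as its own feedback, which activated endothelium and leukocytes share, gave 1 call among 12 in Ptgs-/- against Ptgs+/+ tumors, or 8.33% higher, against 12.1% of all genes. It was *Traf1*, which rose from 13.9 ± 2.12 to 29.9 ± 6.31 CPM (1.11 ± 0.19, edgeR FDR 0.00171) and was also higher than in NK-depleted tumors (1.01, FDR 0.0306). *Nfkbia* (0.12 ± 0.09), *Tnip1* (0.28 ± 0.17) and *Relb* (0.28 ± 0.10) did not pass. Of the 8 genes tested from a list of other vascular adhesion and venule genes, *Fut7* and *Ncam1* (0.75 ± 0.13) rose and *Vcan* (-0.93 ± 0.11) fell. Whether vessels or other cells made these RNAs was not measured. *Fut7* is on both lists and was already counted among the genes of the leukocyte side. *Ackr1*, a marker of venules, was at 10.98 ± 2.40 CPM in Ptgs+/+ and 11.7 ± 3.61 CPM in Ptgs-/- tumors (0.09 ± 0.25).

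Ptgs-/- replicate 1 was the lowest of the 10 libraries for 7 of the 10 genes. The same library had the lowest summed level of 10 adipocyte markers, 474 CPM against 1638 to 7802 CPM over the Ptgs+/+ tumors, and of 10 pericyte and mural cell markers, 145 CPM against 333 to 437 CPM. None of the adipocyte markers was called in Ptgs-/- against Ptgs+/+ tumors, while *Acta2* (-0.94 ± 0.29) alone fell among the 9 pericyte and mural cell genes tested. Without this library 6 of the 10 genes were called, *Sele* no longer. In the second experiment code, with 1 library per group and so no test, all 7 called genes had their difference in the same direction, as in *Pecam1* (128 and 83.3 CPM) and *Icam1* (10.5 and 21.6 CPM). In the first code alone 4 genes were called, all lower, and *Tie1* (-0.99, FDR 0.0676), *Sele* and *Icam1* were not.

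Markers of other cells also differed in Ptgs-/- against Ptgs+/+ tumors, some lower, as most of the endothelial genes were, and some higher. The red cell markers fell (4 of 4 tested), from a summed 556 to 1659 CPM down to 314 to 518 CPM, and reached 353 to 649 CPM in NK-depleted tumors. The macrophage markers (7 of 10 higher) summed to 1846 to 2152, 2815 to 4376 and 2619 to 2979 CPM in the same 3 groups, the fibroblast markers (6 of 10 higher) to 8118 to 10825, 13576 to 17313 and 11208 to 14010 CPM, and the NK cell markers (9 of 9 higher) to 16.5 to 37.6, 84.5 to 187 and 5.67 to 6.75 CPM. Of the neutrophil markers 4 of 7 fell, *S100a8*, *S100a9*, *Cxcr2* and *Mmp8*. Their list summed to 209 to 275, 39.6 to 62.5 and 92.2 to 130.2 CPM in the same 3 groups. Most of this was *S100a8* and *S100a9*, with means of 115.0 and 94.9 CPM in Ptgs+/+ tumors. *Csf3r* (0.61 ± 0.27), *Retnlg* (0.28 ± 0.42) and *Ltf* (-1.40 ± 0.68) did not pass. *Retnlg* was higher in NK-depleted than in Ptgs+/+ tumors (1.77 ± 0.40, edgeR FDR 0.0139). Among the platelet markers, which bear on *Selp*, *Pf4* (-0.80 ± 0.13) and *Ppbp* (-4.93 ± 0.32) fell, and the other 3 tested, *Itga2b* (0.34 ± 0.22), *Gp1bb* (0.50 ± 0.46) and *Treml1* (0.74 ± 0.43), did not pass, so that the median of the 5 was 0.34. *Gp9*, *Gp6* and *Tubb1* were at or near 0 in every group. The skeletal muscle markers (4 of 9 higher) summed to 23.0 to 188 CPM in Ptgs+/+, 119 to 410 CPM in Ptgs-/- and 2568 to 5962 CPM in NK-depleted tumors. The keratinocyte markers gave 1 call of 5, *Krt5*, which fell, and the melanoma line markers 1 of 3, *Gpnmb*, which rose. The defining melanocyte gene *Sox10*, at 2.72 ± 1.97 CPM in Ptgs+/+ tumors (-0.63 ± 0.62), and *Mitf* (0.35 ± 0.18) did not pass. *Dct*, *Tyr*, *Tyrp1*, *Pmel* and *Mlana* were too low to be tested, so the list does not measure the share of melanoma cells. The part of these cells in the endothelial and adhesion results was not tested.

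Across the 10 libraries the levels of the identity genes varied together, with Pearson's r of log2(CPM + 1) from 0.33 to 0.98 over their 15 pairs (median 0.85), and *Pecam1* and *Esam* at 0.98. *Icam1* had r between -0.50 and -0.11 with the 6 identity genes, and *Vcam1* between 0.11 and 0.77. These correlations include the differences between groups and are given as a description. The genes whose levels most resembled the mean of *Pecam1*, *Cdh5*, *Tek*, *Tie1* and *Esam* over the 10 libraries were *Aplnr*, *Mmrn2*, *Rasip1*, *Fam167b* and *F11r* (r from 0.97 to 0.98). For *Vcam1* they were *Rhox5*, *S100a6* and *Alad* (0.97 to 0.98), for *Icam1* *Slc16a7*, *Adgrg5* and *Ccdc88b* (0.97), for *Sele* *Vars2*, *Il6st* and *Tra2a* (0.92 to 0.95), and for *Selp* *Syt15*, *Tacr1* and *Qrsl1* (0.89 to 0.90).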

How the data were processed

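Whole tumors were sequenced as 3′ mRNA libraries. After trimming, STAR placed the reads on GRCm38 and featureCounts assigned them to genes. The authors deposited the raw counts per gene, with 1 column for each of the 10 libraries. Whether counting used strand is not given in the sources used here, so reads of *Cdh5*, *Plvap*, *Selp*, *Vcam1* and *Icam1* cannot be told from those of genes on the opposite strand that overlap them. Identifiers were named by GENCODE M21 (45143 of 45706). Groups came from the labels.

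The analysis used edgeR 4.0.16 under R 4.3.3. Low counts were filtered with filterByExpr, which left 14550 genes, and libraries were scaled by TMM. The quasi-likelihood test was fitted to all 10 libraries at once, with Benjamini-Hochberg adjustment over all genes and a call at an FDR at or under 0.05. The study's methods also ask for an absolute log2 fold change of 1.5, given beside it. Standard errors are the log2 fold change over the square root of F. Replicates differed beyond sampling noise in every pair (chi-square per degree of freedom 7.41 to 30.1). The scripts were tested on simulated counts for Ptgs-/- against Ptgs+/+ tumors. They called 55 of 100 genes with a true absolute log2 fold change of 1 and 88 of 100 with one of 2. Of the unchanged genes 10 were called. Recovery in the other comparisons was not examined.

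The 10 genes and all lists were chosen with earlier results of these data known. Other genes named are *Ptgs1*, *Ptgs2* and *Ncr1* as checks of the labels, the 3 of each list with the highest mean level, up to 3 called ones with the lowest p in each of the first 2 comparisons, and those most like the identity mean or an adhesion gene. Further genes of the lists are named after their values were seen. Alternatives were DESeq2 1.42.0, other scalings, filters, designs and thresholds, and each library left out. The floor of 3 counts covers counting error only. Some genes of the lists are not reported here and were left out of the lists' counts.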

Additional observations from a re-analysis of the deposited data

Results flagged for a closer look

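*Esam* in Ptgs+/+ replicate 1, at 128.9 CPM, was set apart from the other 3 Ptgs+/+ tumors, which lay close together at 147, 148 and 147 CPM. Its gap to the nearest of them was 0.958 of the range of the group, above Dixon's 95% critical value for 4 samples. Of the 10 genes tested in this group it was the only such value, and chance gives about 1 in 20. This library was still above every Ptgs-/- library.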

How the results depend on the processing

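Of the 10 genes 7 were called in Ptgs-/- against Ptgs+/+ tumors. The count was 4 in the first experiment code alone and 0 when an absolute log2 fold change of 1.5 was also required, and 5 to 7 when 1 library was left out. *Pecam1*, *Tie1*, *Esam* and *Vcam1* were called in all 10 fits without a library. *Cdh5* also lost its call with only the 2 groups in the fit (FDR just over 0.05), and *Sele*, not tested under a minimum of 10 counts in every library, kept its call in 4 of 9 other settings. In NK-depleted against Ptgs+/+ tumors the count of 1 became 3 with DESeq2, 2 with no filter on low counts, 4 with the likelihood ratio test, 4 with only the 2 groups compared and 0 with the fold change rule, and it ranged from 1 to 4 without a library. With the label number as a replicate block it was 2, and in the other comparisons the block gave 7 and 0, as without it. Same-numbered libraries did not deviate together in every pair, so the numbers were not used as pairs. Their r ran from -0.30 (Ptgs+/+ replicate 4 with NK-depleted replicate 2, of different codes) to 0.39 (Ptgs+/+ replicate 1 with Ptgs-/- replicate 1). Between Ptgs-/- and NK-depleted tumors it was 0.00 to 0.08, lowest for a pair of different codes. In Ptgs-/- against Ptgs+/+ tumors the block gave an SE of 0.17 for *Esam* and 0.30 for *Cdh5*, against 0.25 and 0.28 without it. The cause of these changes was not tested.

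Signs turned only in fits without 1 library and only for estimates without a call. In Ptgs-/- against NK-depleted tumors *Tek* ranged from -0.29 to 0.18 (0.0060 without Ptgs-/- replicate 1, 0.18 without NK-depleted replicate 3), *Tie1* from -0.45 to 0.0049 and *Plvap* from -0.40 to 0.0182, both positive without Ptgs-/- replicate 1. *Sele* ranged from -0.33 to 0.22 and *Selp* from -0.52 to 0.14, positive at 0.06 and 0.14 without Ptgs-/- replicate 1 and at 0.22 and 0.0938 without NK-depleted replicate 2. *Vcam1* ranged from -0.25 to 0.0869, positive without replicate 2 of either group. *Tek* in NK-depleted against Ptgs+/+ tumors ranged from -0.39 to 0.0472, positive without Ptgs+/+ replicate 3 or NK-depleted replicate 1. Of the other values under an alternative, 15 passed the threshold newly, 18 no longer passed and 609 were unchanged. For a fold change, unchanged means the same direction and the same side of the threshold. The 609 also hold mean levels and differences from *Cdh5*, where it means only a shift smaller than the SD of the group. At 7 to 35 counts per library, *Sele* is limited by depth.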
